A study of Mus musculus with 15 samples.

Results

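Expression of 10 imprinted genes was followed through 5 mouse embryonic stem cell lines: Plagl1, Impact, Zdbf2, Inpp5f and Commd1, which lie singly on chromosomes 10, 18, 1, 7 and 11, and Nnat, Blcap, Gnas, H13 and Mcts2 on chromosome 2. The members were all probe sets annotated to these genes on an Affymetrix whole-genome mouse array, 26 of 45101 in all (10 of 18193 genes), and none of the 26 was also annotated to another gene. Parthenogenetic cells come from an oocyte activated without sperm and carry maternal chromosomes only. OpB6D2, a parthenogenetic line, was made from oocytes that B6D2F1 females had ovulated naturally. FpB6D2 and FpB6CBA were parthenogenetic lines from oocytes grown in preantral follicles cultured from prepubertal B6D2F1 and B6CBAF1 females, the second being a cross of a C57BL6 female with a CBA/Ca male. NmB6D2 was a fertilised line from a mated C57BL6 female and DBA2 male. R1, a purchased fertilised line, came from a cross of 129S1/SvImJ and 129X1/SvJ. Each line was 1 derivation with 3 arrays. The arrays are not said to be separate cultures, so p values reflect array-to-array spread, which may be technical. Between a parthenogenetic and a fertilised line, the line itself and its mode of origin cannot be told apart, nor can strain where R1 or FpB6CBA is one of them. OpB6D2 and FpB6D2 share parent strains with NmB6D2 but came from oocytes of F1 females, so their genotypes need not match it.

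An imprinted gene is expressed mainly from the allele of 1 parent, and the choice is set by DNA methylation laid down in the egg or the sperm. The methylated control region of most such genes is marked in the egg, so a cell with maternal chromosomes only would carry the mark on both copies. Plagl1, a zinc finger transcription factor that restrains growth, Impact, a regulator of translation under stress, Zdbf2, a zinc finger protein gene, Nnat, a small membrane protein of the neuronal endoplasmic reticulum, and Mcts2, a retrogene copy of the X-linked Mcts1, are expressed from the paternal allele. Inpp5f, an inositol phosphatase gene, has a paternally expressed transcript in brain. Commd1, a copper metabolism gene, Blcap, a gene named for bladder cancer, and H13, which encodes a signal peptide peptidase, favour the maternal allele in some tissues. Gnas encodes the stimulatory G protein alpha subunit and has further transcripts that are maternal or paternal only.

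Some of these genes lie inside another member. On GRCm38.p6, Plagl1 spans chr10:13090832-13131694, Zdbf2 chr1:63200358-63314576, Inpp5f chr7:128611181-128696436, Commd1 chr11:22899728-22984539 and Gnas chr2:174284320-174346744. Mcts2 (chr2:152687148-152687946) lies inside H13 (chr2:152669422-152708668), and Nnat (chr2:157560078-157562525) lies inside Blcap (chr2:157556362-157566361). The start regions of 4 paternally expressed genes, Plagl1, Zdbf2, Nnat and Mcts2, are shown here. The egg's methylation mark of several imprinted genes covers a start of this kind. The regions run from 250 bases before to 50 bases after the start on the plus strand of GRCm38.p6, from RefSeq. Capitals mark TGCCGC or its reverse complement GCGGCA, the core bound by ZFP57, a protein that keeps imprints methylated. A promoter was available for 9 of the 10 genes, all but Impact, which is also paternally expressed.
Plagl1 (chr10:13090582-13090881): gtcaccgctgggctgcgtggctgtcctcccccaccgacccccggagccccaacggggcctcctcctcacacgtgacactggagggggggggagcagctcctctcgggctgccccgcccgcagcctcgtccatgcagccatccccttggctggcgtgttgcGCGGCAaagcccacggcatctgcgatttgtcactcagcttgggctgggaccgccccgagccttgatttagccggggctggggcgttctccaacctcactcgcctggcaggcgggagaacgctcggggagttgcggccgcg
Zdbf2, upstream start (chr1:63200108-63200407): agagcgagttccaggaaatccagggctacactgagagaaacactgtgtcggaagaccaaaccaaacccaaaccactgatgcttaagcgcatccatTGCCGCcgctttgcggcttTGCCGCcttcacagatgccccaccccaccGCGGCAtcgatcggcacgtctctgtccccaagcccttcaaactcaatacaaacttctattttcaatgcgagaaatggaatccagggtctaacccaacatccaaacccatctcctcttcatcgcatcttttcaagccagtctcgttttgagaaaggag
Zdbf2, downstream start (chr1:63273019-63273318): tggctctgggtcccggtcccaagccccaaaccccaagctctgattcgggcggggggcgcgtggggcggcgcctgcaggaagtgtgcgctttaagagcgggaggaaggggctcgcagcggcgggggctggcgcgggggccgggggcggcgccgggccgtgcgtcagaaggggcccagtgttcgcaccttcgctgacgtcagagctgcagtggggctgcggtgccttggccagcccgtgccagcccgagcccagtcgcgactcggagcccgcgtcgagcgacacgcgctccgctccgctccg
Nnat (chr2:157559828-157560127): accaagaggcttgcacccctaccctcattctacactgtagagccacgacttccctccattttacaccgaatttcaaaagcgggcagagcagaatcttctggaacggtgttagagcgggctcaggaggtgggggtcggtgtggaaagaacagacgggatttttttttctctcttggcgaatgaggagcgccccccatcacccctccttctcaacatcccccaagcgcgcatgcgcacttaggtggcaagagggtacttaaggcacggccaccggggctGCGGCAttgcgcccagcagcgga
Mcts2 (chr2:152686898-152687197): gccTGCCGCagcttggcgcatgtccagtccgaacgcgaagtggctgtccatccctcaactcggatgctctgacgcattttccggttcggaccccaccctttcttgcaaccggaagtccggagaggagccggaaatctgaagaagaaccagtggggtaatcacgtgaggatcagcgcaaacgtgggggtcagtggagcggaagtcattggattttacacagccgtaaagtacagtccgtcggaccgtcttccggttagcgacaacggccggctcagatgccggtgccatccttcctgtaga
The core occurred in 5 of 14 member promoters and in 11.6% of 32851 mouse promoters of the same length. The upstream Zdbf2 start held 3 matches and the downstream start 0. Plagl1, Nnat and Mcts2 held 1 each, as did 1 of the Commd1 promoters. The Plagl1 window held 26 CpG and the downstream Zdbf2 window 38, where the median promoter held 7. All member promoters held 15 to 40. The core itself holds a CpG, so its shares in member promoters and in all promoters are not like for like. A match is only a run of letters, and methylation was not measured in these samples.

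Values are log2 probe set values as deposited. Probe sets under 3.86 (the overall median) on more than 12 arrays were left out of the tests. A total of 14 member probe sets were tested, with at least 1 for each of the 10 genes, and 12 were not, reading 2.59 to 3.94. Levels of different probe sets are not compared. A difference was called at an adjusted p under 0.05 by limma, over all 24524 tested probe sets, with at least a 2-fold difference. All 5 lines read the pluripotency factors Pou5f1 (11.38 to 12.02), Sox2 (10.96 to 11.26), Nanog (9.81 to 11.39) and Esrrb (9.42 to 10.31). Zfp42, the last of these 5 listed markers, read 8.22 to 9.15 in 4 lines and 11.36 in R1. Of the 5, 1, 1 and 2 were called lower in OpB6D2, FpB6D2 and FpB6CBA than in R1. On 1 probe set for each gene, 10.3%, 13.3% and 18.2% of all genes were called there. Relative to NmB6D2, 0 were called in these lines and 1 was higher in R1 (12.9%). Over tested probe sets, which are not replicates, r was 0.992 to 0.998 within a line and 0.917 to 0.978 between lines. Spiked hybridisation controls read 9.72 to 10.41 on the 6 arrays of the follicle lines, against 9.36 to 9.73 on the other 9. Spiked poly-A controls read 7.72 to 8.85 against 7.30 to 7.68. The actin control's 3′ minus 5′ difference, which reflects RNA quality, was 0.616 to 0.757 against 0.478 to 0.548. Both of these measures separated the follicle lines completely. The same difference for the Gapdh control did not, at -0.079 to 0.058 against 0.026 to 0.114, and it leaned the other way. The part of these differences in any result was not tested.

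Of the 14 tested member probe sets, 9 were called in at least 1 of the 10 comparisons of lines, where 31.9% of all tested probe sets were. Of these 9, Plagl1 1450533_a_at was called in only 1 comparison and entered the tests through its R1 arrays alone, so its call is no evidence. The 9 belonged to 7 of the 10 genes, and Commd1, H13 and Mcts2 had no call. Between OpB6D2 and NmB6D2, 3 of 14 member probe sets were called higher and 0 lower, where 5.42% of all tested probe sets were called. Between FpB6D2 and NmB6D2, 3 were higher and 1 lower (background 10.2%), and between FpB6CBA and NmB6D2, 2 were higher and 2 lower (4.31%). Against R1, OpB6D2 had 1 higher and 3 lower (9.55%), FpB6D2 had 2 higher and 4 lower (13.1%) and FpB6CBA had 2 higher and 4 lower (17.8%). Between the fertilised lines R1 and NmB6D2, 5 were higher and 1 lower (12.7%), and 1 of the 5, Plagl1 1450533_a_at, had entered the tests only through its R1 arrays. Between parthenogenetic lines, 0 were higher: 2 were lower in FpB6D2 than in OpB6D2 (4.07%), 2 in FpB6CBA than in OpB6D2 (9.82%) and 1 in FpB6CBA than in FpB6D2 (10%). Comparisons that share a line share its arrays. The median member difference was 0.20 for OpB6D2 minus NmB6D2 (all probe sets -0.01), 0.01 for FpB6D2 minus NmB6D2 (0.00) and 0.03 for FpB6CBA minus NmB6D2 (-0.01). Against R1 it was -0.39, -0.63 and -0.81 in OpB6D2, FpB6D2 and FpB6CBA (0.01, 0.02 and 0.03), and for R1 minus NmB6D2 it was 0.57 (-0.04). These medians include Plagl1 1450533_a_at and H13 1438456_at, which passed the filter only or mostly on R1 arrays, where they read highest.

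**Figure D1:**
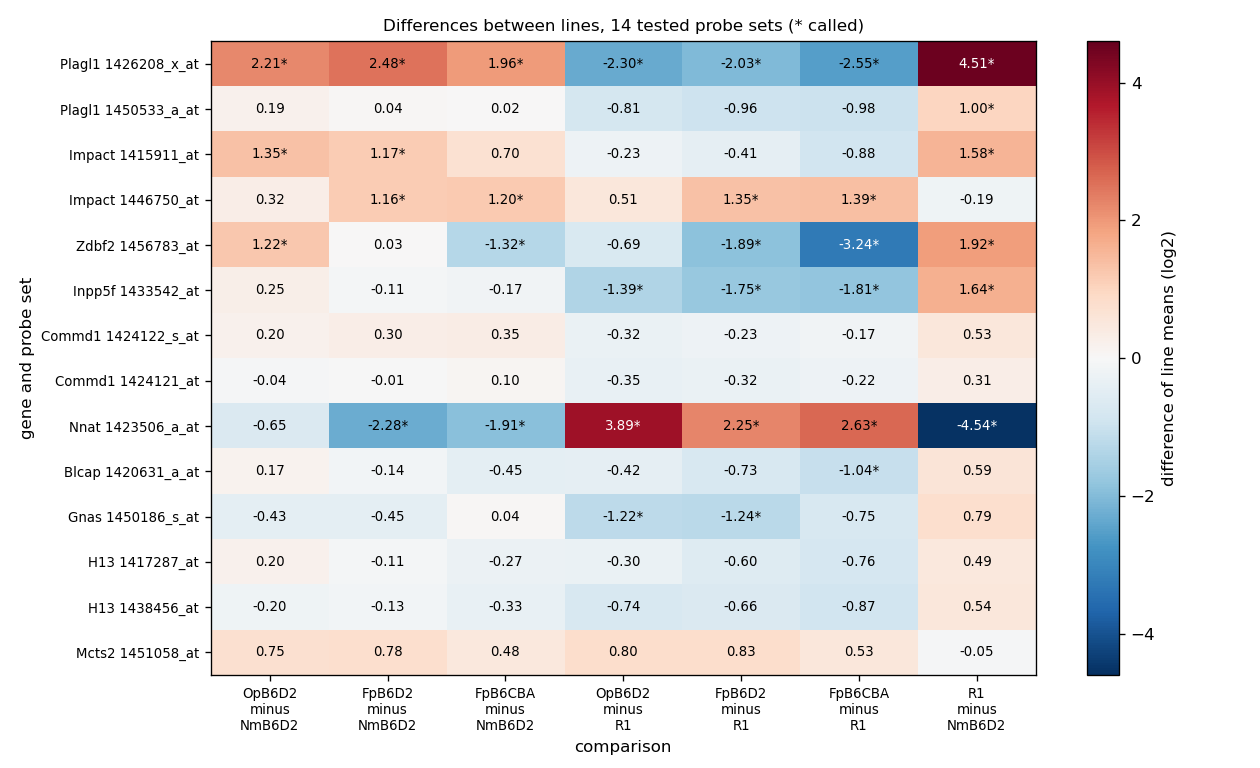
Differences of line means (log2) for the 14 tested probe sets in the comparisons with NmB6D2, with R1 and of R1 with NmB6D2. A star marks a call, and Plagl1 1426208_x_at and Nnat hold the largest differences, 4.51 and -4.54 in R1 minus NmB6D2.

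Plagl1 was higher in all 3 parthenogenetic lines than in NmB6D2 and lower in all 3 than in R1. Its probe set 1426208_x_at read 7.78, 7.79 and 7.64 in OpB6D2, 7.95, 8.09 and 7.98 in FpB6D2, 7.51, 7.76 and 7.19 in FpB6CBA, 5.42, 5.58 and 5.57 in NmB6D2, and 10.16, 10.04 and 9.91 in R1. Every parthenogenetic array lay above all NmB6D2 arrays and below all R1 arrays. Relative to NmB6D2 the gene rose 4.63-fold in OpB6D2 (a gain of 2.21 ± 0.12 log2 units, SE, with an adjusted p of 3.6e-09 by limma), 5.59-fold in FpB6D2 and 3.90-fold in FpB6CBA. Relative to R1 it fell 4.93-fold, 4.08-fold and 5.85-fold in these lines. R1 was 22.8-fold above NmB6D2 (4.51, adjusted p = 1.1e-12 by limma). Neighbouring lines in the middle of this order differed by 0.27 for FpB6D2 over OpB6D2 (adjusted p = 0.071 by limma) and -0.25 for FpB6CBA minus OpB6D2 (0.083). This probe set has the suffix that Affymetrix gives to probes that may match other transcripts. The second tested probe set, 1450533_a_at, reached the filter value only in R1, at 4.06, 3.93 and 4.25, and line means elsewhere were 3.08 to 3.27. It entered the tests through those arrays alone, so its call above NmB6D2 (at least 1.16-fold) is no evidence of a difference. That call was lost under median centring (0.92), with the replicate block (0.89) and without NmB6D2 replicate 2 (0.95), NmB6D2 replicate 4 (0.99) or R1 replicate 5 (0.92). The third probe set, 1438588_at, had line means of 3.06 to 3.41 and was not tested.

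The mean of the fibroblast markers was also highest in R1 and lowest in NmB6D2. Feeder cells are fibroblasts on which embryonic stem cells are often grown. The mean level of the 15 tested genes in a list of 17 was 7.67 to 8.09 on OpB6D2 arrays, 7.51 to 7.62 in FpB6D2, 7.51 to 7.79 in FpB6CBA, 7.05 to 7.18 in NmB6D2 and 8.19 to 8.27 in R1. Relative to NmB6D2, 5, 4 and 2 of the 15 were called higher in OpB6D2, FpB6D2 and FpB6CBA and 9 in R1, with 0 lower in each. Against R1 they went both ways, with 4 higher and 4 lower in OpB6D2, 3 and 8 in FpB6D2, and 3 and 7 in FpB6CBA. S100a4, Thy1 and Prrx1 had their lowest line mean in R1 (6.85, 5.95 and 5.62). Lum was under the filter value in all lines. On 1 probe set for each gene, 5.85%, 10.8%, 4.20% and 12.9% of all genes were called in the comparisons with NmB6D2, and 10.3%, 13.3% and 18.2% in those with R1. Their part in the values of Plagl1 and Impact was not tested. In bulk RNA, fewer cells of a type and less RNA per cell cannot be told apart.

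The mean of the trophectoderm markers, genes of the outer layer of the blastocyst, was highest in NmB6D2. The mean of the 8 listed genes was 5.73 to 5.95 on OpB6D2 arrays, 6.42 to 6.56 in FpB6D2, 7.04 to 7.09 in FpB6CBA, 7.74 to 7.83 in NmB6D2 and 6.78 to 6.95 in R1. Relative to NmB6D2, 4, 4 and 1 of the 8 fell in OpB6D2, FpB6D2 and FpB6CBA and 0 rose, with median differences of -1.94, -1.15 and -0.31. On 1 probe set for each gene, 5.85%, 10.8% and 4.20% of all genes were called in these comparisons. R1 had 1 higher and 2 lower than NmB6D2, where 12.9% of all genes were called. Elf5, a transcription factor gene of this layer, averaged 6.95 in NmB6D2 and lay under the filter value in the other 4 lines. It thus entered the tests through the line where it is high, so its falls from NmB6D2 are set in part by the filter. Elf5 is in the means and counts above, and it was the only fall in FpB6CBA. Krt8, Krt18 and Krt7 also had their highest line mean in NmB6D2 (11.24, 11.28 and 8.57). Eomes was highest in R1 (10.08, against 7.49 in NmB6D2), Tfap2c in OpB6D2 (8.51 against 8.03) and Gata3 in FpB6D2 (4.95 against 4.56). Cdx2 had line means of 3.79 to 4.25, with R1 highest. The part of these markers in the differences of members from NmB6D2 was not tested.

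**Figure D2:**
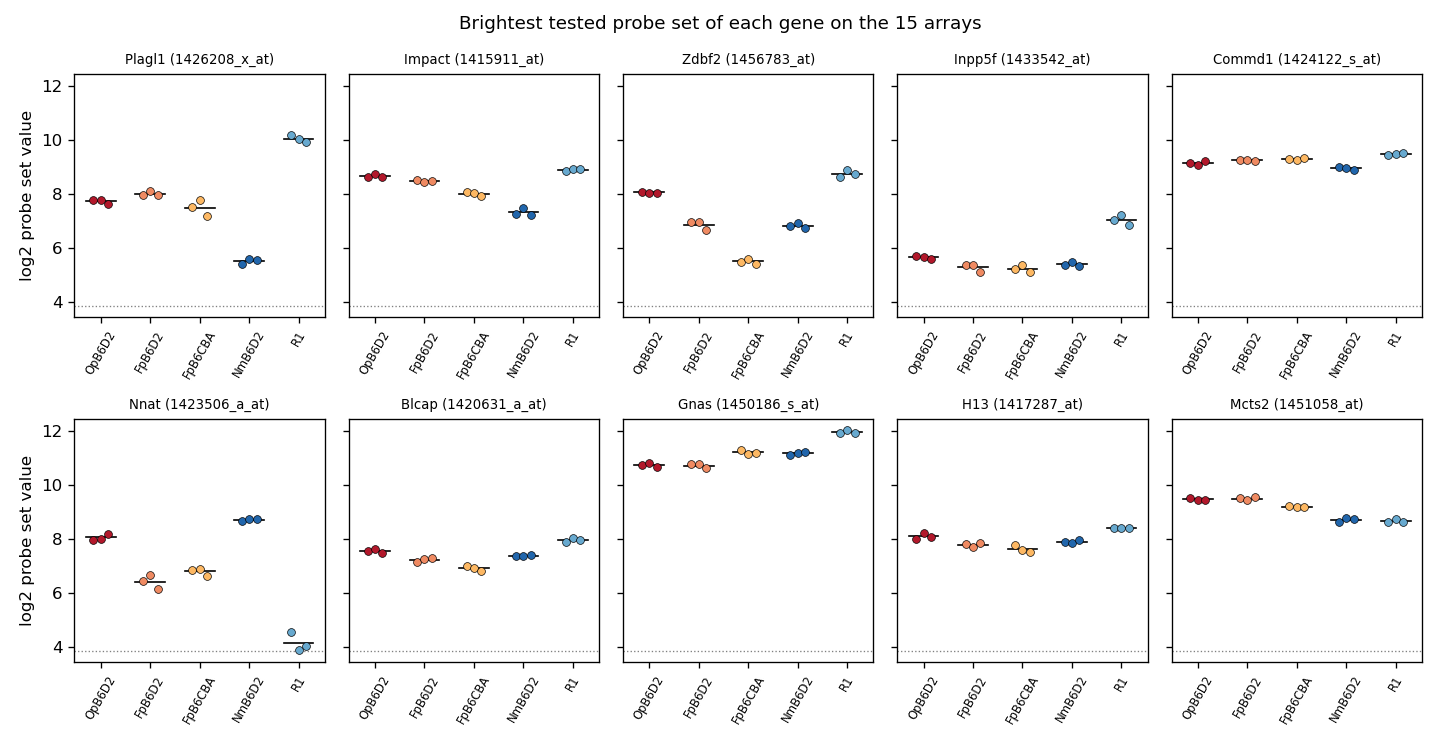
Log2 value of each of the 15 arrays, with the line mean, for the tested probe set of highest mean of each gene. The parthenogenetic lines stand left of the fertilised ones. R1 and NmB6D2 stand at opposite ends for Plagl1 1426208_x_at (10.04 and 5.53) and for Nnat (4.17 and 8.71), in opposite order.

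Impact (chr18:12954690-12992950 on GRCm38.p6) read higher in OpB6D2 and FpB6D2 than in NmB6D2. Probe set 1415911_at read 8.61, 8.74 and 8.64 in OpB6D2, 8.50, 8.46 and 8.48 in FpB6D2, 8.07, 8.05 and 7.92 in FpB6CBA, 7.26, 7.47 and 7.20 in NmB6D2, and 8.86, 8.91 and 8.90 in R1. All parthenogenetic arrays lay above NmB6D2 and below R1. The gene rose 2.54-fold in OpB6D2 (1.35, adjusted p = 3.6e-09 by limma) and 2.24-fold in FpB6D2 (1.17), while FpB6CBA, at 0.70 above NmB6D2, missed the fold minimum. R1 was 2.99-fold above NmB6D2 (1.58), and no parthenogenetic line was called against R1 (-0.23, -0.41 and -0.88). Probe set 1446750_at gave another order. It read 4.38, 4.00 and 4.31 in OpB6D2, 4.94, 5.09 and 5.20 in FpB6D2, 5.28, 4.98 and 5.08 in FpB6CBA, 3.86, 4.17 and 3.71 in NmB6D2, and 3.98, 3.79 and 3.39 in R1. The arrays of both follicle lines lay above all others, as they did in the poly-A and actin controls. FpB6D2 was 2.24-fold and FpB6CBA 2.30-fold above NmB6D2, and both were above R1, by at least 2.31-fold and 2.38-fold. The NmB6D2 mean of 3.91 is close to the filter value, so the folds over NmB6D2 rest on a signal near background. OpB6D2 read 0.32 above NmB6D2 (adjusted p = 0.12 by limma). The probe set 1446751_s_at was not tested, with line means of 3.34 to 3.57.

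Among the nearest tested genes on each side of Impact, Ttc39c rose in all 3 parthenogenetic lines against both fertilised lines. Its difference from NmB6D2 was 1.69 in OpB6D2, 1.41 in FpB6D2 and 1.40 in FpB6CBA, and from R1 it was 1.62, 1.34 and 1.32. Psma8, a proteasome subunit gene of germ cells, was 2.89, 2.13 and 2.63 above R1 in OpB6D2, FpB6D2 and FpB6CBA, 1.11 above NmB6D2 in OpB6D2, and 1.78 lower in R1 than in NmB6D2. Osbpl1a had no call, at 0.83, 0.60 and 0.98 above NmB6D2 and 0.83, 0.59 and 0.97 above R1 in the same lines. Ss18 had no call.

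Zdbf2 differed most among the parthenogenetic lines. Its 1 probe set, 1456783_at, read 8.09, 8.03 and 8.05 in OpB6D2, 6.97, 6.97 and 6.65 in FpB6D2, 5.50, 5.60 and 5.42 in FpB6CBA, 6.83, 6.93 and 6.73 in NmB6D2, and 8.62, 8.87 and 8.75 in R1. Only FpB6D2 and NmB6D2 overlapped. Relative to NmB6D2, Zdbf2 rose 2.34-fold in OpB6D2 (1.22, adjusted p = 1.5e-07 by limma) and fell 2.50-fold in FpB6CBA (-1.32), and FpB6D2 differed by 0.03 (adjusted p = 0.80 by limma). It fell 5.84-fold in FpB6CBA and 2.29-fold in FpB6D2 relative to OpB6D2, and 2.56-fold in FpB6CBA relative to FpB6D2. R1 was 3.78-fold above NmB6D2 (1.92). Relative to R1, the gene fell 3.70-fold in FpB6D2 and 9.44-fold in FpB6CBA, while OpB6D2 lay 0.69 below R1 and missed the fold minimum. Zdbf2 was called in 8 of 10 comparisons, and its 4 nearest tested neighbours, Ndufs1, Eef1b2, Adam23 and Fastkd2, in 0. Only 31.9% of all tested probe sets were called in any comparison, so 4 neighbours without a call are not unusual. The mean of 10 primitive endoderm markers was highest in FpB6CBA, at 7.43 to 7.64 on its arrays. It was 5.89 to 6.14 in OpB6D2, 5.88 to 6.07 in FpB6D2, 5.90 to 6.12 in NmB6D2 and 6.63 to 6.76 in R1. Relative to NmB6D2, 8 of the 10 were called higher and 0 lower in FpB6CBA, where 4.20% of all genes were called. In R1, the line with the highest Zdbf2, 5 were higher and 1 lower (12.9%). OpB6D2 (5.85%) and FpB6D2 (10.8%) each had 1 higher and 0 lower. The part of these markers in the Zdbf2 values was not tested.

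Inpp5f set R1 apart from the other 4 lines. Probe set 1433542_at read 5.72, 5.66 and 5.59 in OpB6D2, 5.39, 5.37 and 5.13 in FpB6D2, 5.21, 5.35 and 5.13 in FpB6CBA, 5.38, 5.48 and 5.35 in NmB6D2, and 7.04, 7.24 and 6.86 in R1. All R1 arrays lay above all others. The gene fell 2.62-fold, 3.36-fold and 3.52-fold in OpB6D2, FpB6D2 and FpB6CBA relative to R1, and R1 was 3.12-fold above NmB6D2 (1.64). No parthenogenetic line was called against NmB6D2 (0.25, -0.11 and -0.17). The other 2 Inpp5f probe sets were not tested and read 2.75 to 3.94. Bag3, a co-chaperone gene beside Inpp5f, was also higher in R1 than in NmB6D2 (1.15) and lower in OpB6D2, FpB6D2 and FpB6CBA than in R1 (-1.24, -2.01 and -1.39), while Tial1, Mcmbp and Sec23ip had no call.

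Commd1 had the smallest spans of the members. Its probe sets spanned 0.53 (1424122_s_at, line means 8.94 to 9.47) and 0.35 (1424121_at, 8.12 to 8.47) over the 5 lines, and none of 10 comparisons reached a 2-fold difference in either. These spans lay at the 34.9 and 19 percentiles of all tested probe sets, where those of Plagl1 1426208_x_at, Nnat and Zdbf2 lay at 99.6, 99.7 and 98.7.

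Nnat ran against Plagl1 in the fertilised lines, with NmB6D2 highest and R1 lowest. Probe set 1423506_a_at read 7.96, 8.01 and 8.19 in OpB6D2, 6.44, 6.67 and 6.15 in FpB6D2, 6.86, 6.88 and 6.65 in FpB6CBA, 8.66, 8.73 and 8.73 in NmB6D2, and 4.57, 3.91 and 4.03 in R1. Only the follicle lines overlapped, the lines that the poly-A and actin controls also set apart. Nnat fell 4.87-fold in FpB6D2 (-2.28) and 3.75-fold in FpB6CBA (-1.91) relative to NmB6D2, while OpB6D2 lay 0.65 below and missed the fold minimum (adjusted p = 0.0034 by limma). It fell 3.10-fold in FpB6D2 and 2.39-fold in FpB6CBA relative to OpB6D2. Relative to R1 it rose 14.8-fold in OpB6D2, 4.77-fold in FpB6D2 and 6.19-fold in FpB6CBA. R1 was 23.2-fold below NmB6D2 (-4.54, adjusted p = 1.5e-11 by limma). The R1 mean of 4.17 is close to the filter value, so the folds against R1 rest on a signal near background. Nnat is known from neurons, and the mean of the 6 tested neural markers of 12 listed was 5.67 to 5.81 on OpB6D2 arrays, 5.68 to 5.87 in FpB6D2, 5.16 to 5.26 in FpB6CBA, 5.14 to 5.21 in NmB6D2 and 5.64 to 5.69 in R1. Dcx, Map2, Neurog2, Fabp7 and Zic1 were not tested, with line means of 2.54 to 3.36. The part of these markers in the Nnat values was not tested.

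Blcap, the gene around Nnat, had line means of 7.54 ± 0.07 in OpB6D2, 7.23 ± 0.09 in FpB6D2, 6.92 ± 0.09 in FpB6CBA, 7.37 ± 0.03 in NmB6D2 and 7.97 ± 0.08 in R1 (SD, n = 3 arrays). R1 was its highest line and the lowest for Nnat. The only call was a 2.06-fold fall in FpB6CBA relative to R1 (-1.04), which missed the fold minimum under median centring (-0.95), under quantile normalisation (-0.97) and, narrowly, without FpB6CBA replicate 3. Among their neighbours Src, a tyrosine kinase gene, was 1.06 lower in FpB6D2 than in NmB6D2 and 1.06 lower than in R1, and Ctnnbl1, Vstm2l and Manbal had no call.

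**Figure D3:**
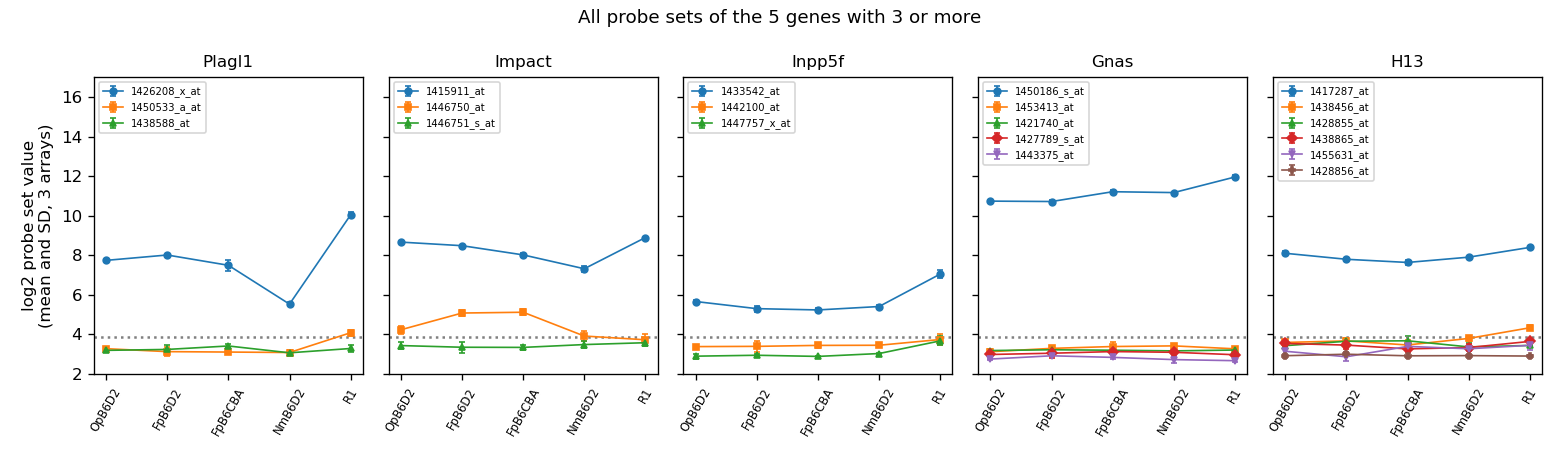
Line means with SD (3 arrays) of all probe sets of the 5 genes with 3 or more, on the log2 scale, with the parthenogenetic lines left of the fertilised ones and the filter value of 3.86 dotted. Most of the further probe sets stay near or under that value, and in Impact the tested pair runs in different orders.

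Gnas was lower in OpB6D2 and FpB6D2 than in R1. Probe set 1450186_s_at read 10.73, 10.81 and 10.65 in OpB6D2, 10.76, 10.76 and 10.62 in FpB6D2, 11.30, 11.13 and 11.20 in FpB6CBA, 11.11, 11.17 and 11.21 in NmB6D2, and 11.92, 12.04 and 11.91 in R1. The arrays of OpB6D2 and FpB6D2 overlapped, as did those of FpB6CBA and NmB6D2, and R1 stood above all. The gene fell 2.33-fold in OpB6D2 (-1.22) and 2.36-fold in FpB6D2 (-1.24) relative to R1. FpB6CBA lay 0.75 below R1, and OpB6D2 and FpB6D2 lay 0.43 and 0.45 below NmB6D2, without a call. The other 4 Gnas probe sets read 2.59 to 3.66 on all arrays and were not tested. Npepl1, next to Gnas in the gene order of tested genes, was 1.06 and 1.16 higher in OpB6D2 and FpB6D2 than in R1. Which of the transcripts of Gnas each probe set reads is not stated in the sources used here.

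H13 had 6 probe sets, of which 2 were tested and none called. Probe set 1417287_at read 8.10 ± 0.10 in OpB6D2, 7.79 ± 0.08 in FpB6D2, 7.63 ± 0.13 in FpB6CBA, 7.90 ± 0.05 in NmB6D2 and 8.39 ± 0.01 in R1 (SD, n = 3 arrays). The other, 1438456_at, had line means of 3.46 to 3.79 in 4 lines and 4.33 in R1. The 4 not tested read 2.64 to 3.92. Among the nearest tested genes, Id1, an inhibitor of differentiation factors, was called in 6 comparisons (1.10 in R1 minus NmB6D2) and Zcchc3 in 4 (-2.17 in R1 minus NmB6D2). Over all members, 12 of 32 such neighbours (37.5%) were called in at least 1 of the 10 comparisons, near the 31.9% of all tested probe sets. Those 12 include Utrn by Plagl1 (called in 1 comparison), Tmem17 (1) and Fam161a (3) by Commd1, Ctsz by Gnas (2) and Sox12 by H13 (3).

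Mcts2, which lies in H13, was the only member whose 9 parthenogenetic arrays all lay above the 6 fertilised arrays. Probe set 1451058_at read 9.51, 9.44 and 9.45 in OpB6D2, 9.50, 9.45 and 9.53 in FpB6D2, 9.22, 9.17 and 9.19 in FpB6CBA, 8.64, 8.78 and 8.73 in NmB6D2, and 8.63, 8.75 and 8.63 in R1. The groups did not overlap, and 3.35% of all tested probe sets had all parthenogenetic arrays above all fertilised ones. The differences from NmB6D2 were 0.75, 0.78 and 0.48 in OpB6D2, FpB6D2 and FpB6CBA, and from R1 they were 0.80, 0.83 and 0.53, with adjusted p of 1.4e-05 or less by limma against NmB6D2 and none at 2-fold. R1 and NmB6D2 differed by -0.05 (adjusted p = 0.50 by limma). Over line means the difference was 0.69 ± 0.17 SE between 3 parthenogenetic and 2 fertilised lines, with a two-sided exact permutation p of 0.1, the smallest that 10 splits allow, and an adjusted p of 0.94 by limma. No probe set of 24524 was called by limma on line means, and 1090 (4.44%) had an unadjusted p under 0.05. In simulated data this comparison recovered 21% of changes of 1.5 log2 units and 73% of changes of 3. The absence of calls therefore does not show that the modes of origin are alike. The parent gene Mcts1 read 10.15 in OpB6D2, 10.69 in FpB6D2, 9.94 in FpB6CBA, 9.99 in NmB6D2 and 9.52 in R1. It differed from NmB6D2 by 0.16, 0.70 and -0.05 in OpB6D2, FpB6D2 and FpB6CBA, the last with an adjusted p of 0.51 by limma. From R1 it differed by 0.64, 1.17 and 0.42 (adjusted p of 2.4e-05 or less by limma). The order of its line means was that of Mcts2 except that NmB6D2 stood above FpB6CBA. Whether the Mcts2 probes also bind Mcts1 transcripts was not tested.

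**Figure D4:**
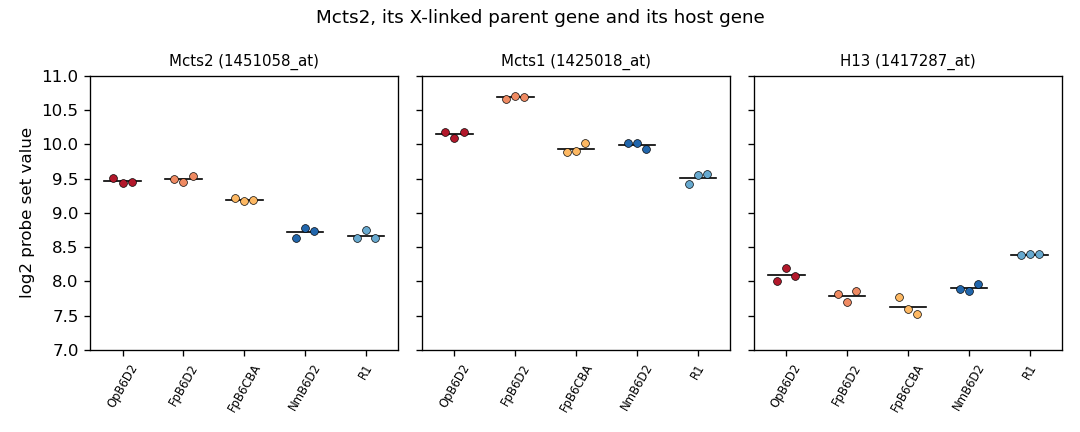
Log2 values by array for Mcts2, its parent gene Mcts1 and its host gene H13, with the parthenogenetic lines left of the fertilised ones. The 9 parthenogenetic arrays of Mcts2 lie between 9.17 and 9.53, above the 6 fertilised arrays at 8.63 to 8.78, while in Mcts1 and H13 the parthenogenetic and fertilised arrays overlap.

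The probe sets of a gene were set against each other within each array, so that a change shared by both cancels. Of 9139 such ratios over all genes, 27.3% were called by limma's F test over the 5 lines with at least a 2-fold gap. Of the 4 member genes with more than 1 tested probe set, Plagl1 and Impact were called. The Plagl1 ratio set 1450533_a_at, at background outside R1, against 1426208_x_at, so it mostly restates the change of the second and its size is not given. In Impact the ratio of 1446750_at to 1415911_at averaged -4.43 in OpB6D2, -3.41 in FpB6D2, -2.90 in FpB6CBA and -3.40 in NmB6D2. In NmB6D2 the first probe set averaged 3.91, close to the filter value, so that ratio rests on a signal near background. In R1 the first probe set averaged 3.72, under the filter value, so no R1 ratio is given, although R1 entered the F test (adjusted p = 8.9e-08 by limma). Commd1 (gap 0.31) and H13 (0.45) did not reach a 2-fold gap.

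Other imprinted genes moved both ways, on 1 probe set for each gene and in a list without the members. Of 16 tested paternally expressed genes, 4 rose and 3 fell in OpB6D2, 1 rose and 2 fell in FpB6D2, and 1 rose and 5 fell in FpB6CBA, each relative to NmB6D2, where 5.85%, 10.8% and 4.20% of all genes were called. Their median differences were 0.28, 0.32 and -0.07, against 0.00, 0.02 and 0.02 over all genes. Ndn, a growth suppressor gene of neurons, rose in OpB6D2 (2.19) and FpB6D2 (2.35), and Peg3, a zinc finger gene, rose in OpB6D2 (1.36) and fell in FpB6CBA (-3.68). Against R1, which was itself above NmB6D2 in both genes (2.36 and 1.34), Ndn differed by -0.17 in OpB6D2 and -0.01 in FpB6D2, and Peg3 by 0.02 in OpB6D2, without a call, while both fell in FpB6CBA (-1.94 and -5.02). Igf2, a fetal growth factor gene, fell in all 3 (-3.64, -3.84 and -2.68), and also relative to R1 (-5.25, -5.45 and -4.28). Sfmbt2, also paternally expressed, fell in all 3 relative to NmB6D2 (-2.49, -3.78 and -1.65). Against R1 it differed by 0.16 in OpB6D2, without a call, fell in FpB6D2 (-1.13) and rose in FpB6CBA (1.00). Of 22 maternally expressed genes, 1 rose and 3 fell in OpB6D2, 0 rose and 7 fell in FpB6D2, and 1 rose and 1 fell in FpB6CBA, with medians of -0.09, -0.19 and -0.01. Grb10, a growth inhibitor gene, fell in all 3 (-1.78, -2.42 and -1.58), and also relative to R1 (-1.43, -2.07 and -1.23). Among 14 genes of imprint maintenance, 1 rose and 0 fell in OpB6D2, 1 rose and 3 fell in FpB6D2, and 0 rose and 4 fell in FpB6CBA. Zfp57 rose in OpB6D2 (1.04) and FpB6D2 (1.01) and fell in FpB6CBA (-1.34), and Dnmt3a, a DNA methyltransferase gene, fell in FpB6D2 (-1.14) and FpB6CBA (-1.59). Against R1 Dnmt3a went the other way, higher in OpB6D2 (2.74), FpB6D2 (1.64) and FpB6CBA (1.19), and Zfp57 differed by 0.85 and 0.83 in OpB6D2 and FpB6D2, without a call, and fell in FpB6CBA (-1.53). Relative to R1, 2 paternally expressed genes rose and 2 fell in OpB6D2, 2 and 3 in FpB6D2, and 4 and 6 in FpB6CBA. Of the maternally expressed 0 rose and 3 fell, 0 and 7, and 2 and 4. In these comparisons with R1, 10.3%, 13.3% and 18.2% of all genes were called.

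The genes whose values ran most like a member over the 15 arrays, by Pearson's r, were Klf15 (0.993), Klk8 (0.982) and Mfsd1 (0.978) for Plagl1, and Kit (0.986), Abhd5 (0.975) and Atp1b2 (0.973) for Impact. For Zdbf2 they were Ppp4r3a (0.994), Dancr (0.989) and Ppp3r1 (0.988). For Nnat they were Tmem50b (0.984), Steap2 (0.979) and Prkar2a (0.978), and for Gnas Phlda2 (0.987), Sdc4 (0.985) and Limk2 (0.985). For Inpp5f they were Stxbp4, Sike1 and Igfbp5, each at 0.989. For Blcap they were Cab39 (0.981), Ube2d1 (0.979) and Smc2 (0.979). The arrays share lines and depth of signal, so the 15 points are not independent.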

How the data were processed

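Expression was measured on 15 arrays of 5 mouse embryonic stem cell lines. Each deposited value is a log2 intensity of 1 probe set on 1 array, and the submitters' processing notes name RMA and the affy package, without versions. Values of 1.99 to 13.96 point to log base 2, which is not stated. No further normalisation was applied. Symbols of the array annotation were brought to GRCm38.p6 through gene IDs: 34945 probe sets carried 1 symbol, 932 several, 9160 none, and 64 were controls.

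The 10 comparisons of lines were contrasts in a single fit (limma 3.58.1, R 4.3.3) with 1 mean per line. Benjamini-Hochberg adjustment ran over all tested probe sets. The comparison of mode of origin used limma on 5 line means and an exact permutation test. Where a line mean lay under 3.86, the fold is a bound against that value. Ratios within a gene set each tested probe set against the one with the highest mean. The members and gene lists were chosen with earlier results of these data known. Named genes were drawn from the members, the 3 most alike genes for each member with a call and the 2 nearest tested genes on each side. Cell type markers and called list genes, up to 4 per list and comparison, were also drawn on. Not every gene of these kinds is named. The fits were tested on simulated data. Array titles gave a number on 13 arrays, and of 12 same-numbered pairs 1 had a correlation of deviations over 0.1 (-0.19 to 0.12), so the numbers do not pair the arrays. Alternatives were other filters, median centring, quantile normalisation, other variance models, a fit of only the 2 lines, a replicate block, other fold minimums, the line as a random block, and leaving out each array or line. Precision is limited by 3 arrays per line. Figures were made in matplotlib 3.10.9.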

Additional observations from a re-analysis of the deposited data

How the results depend on the processing

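Of the 40 called differences and ratios of members, 343 of 347 values under other settings and 596 of 600 values with 1 array left out kept their direction and their call, and 0 reversed. The exceptions were Blcap in FpB6CBA minus R1 and Plagl1 1450533_a_at in R1 minus NmB6D2, whose values stand beside them in the text above. In the order OpB6D2, FpB6D2 and FpB6CBA minus NmB6D2, the same minus R1, R1 minus NmB6D2, FpB6D2 and FpB6CBA minus OpB6D2, and FpB6CBA minus FpB6D2, the counts of all probe sets called were 1329, 2492, 1056, 2342, 3207, 4376, 3105, 997, 2409 and 2461. They were 10796, 13600, 11192, 13165, 15409, 16332, 14452, 11723, 14324 and 13449 with no fold minimum and 3953, 6193, 3725, 5684, 7256, 8823, 7012, 3698, 6267 and 6185 at a minimum of 1.5. Member counts were 9, 7, 10, 14, 14, 14, 12, 6, 10 and 6 with no fold minimum and 5, 5, 5, 8, 11, 11, 8, 3, 5 and 1 at 1.5. With the replicate block, fitted without the 2 unnumbered arrays, they were 3, 4, 4, 4, 6, 6, 5, 2, 2 and 1 members. With 1 array left out, all-probe-set counts ran 1329 to 1382, 2455 to 2518, 1035 to 1139, 2342 to 2401, 3174 to 3261, 4366 to 4463, 3103 to 3173, 988 to 1045, 2376 to 2504 and 2461 to 2544, and member counts 3 to 3, 4 to 4, 4 to 4, 4 to 4, 6 to 7, 6 to 7, 5 to 6, 2 to 2, 2 to 2 and 1 to 1. For mode of origin, 0 probe sets were called as reported, 3 with the filter at 6, 3 under median centring, 3 with trend and robust variance, 107 with the line as a random block (consensus correlation 0.84, 2455 at an unadjusted p under 0.05) and 0 to 73 with 1 line left out, the 73 without NmB6D2. No member was among them. Called ratios within a gene numbered 2493, and 4184 with no filter, 1031 with the filter at 6 and 6490 with no fold minimum, of which 2, 10, 0 and 3 were of members, and they ran 2489 to 2535 with 1 array left out. Fold minimums and filters change by construction which probe sets can count, and the cause of the other moves was not tested. Values near 3.86 have little signal over background, which limits the low probe sets of Plagl1, Impact, Gnas, Inpp5f and H13, and Nnat in R1.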
